A study of Mus musculus with 12 samples.

Results

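The genes described are 10 regulators of fat cell formation and lipid handling: the peroxisome proliferator-activated receptors Pparg, Ppara and Ppard, their partners Rxra and Rxrg, the liver X receptor Nr1h3, the CCAAT/enhancer-binding proteins Cebpa, Cebpb and Cebpd, and the early B cell factor Ebf2. They were taken from a list of names and matched by symbol among 43432 genes counted in mouse sciatic nerve. All 10 were found once and all 10 passed the filter on low counts, which left 17257 genes. The nerves came from mice about 1 month old, 1 nerve per mouse, in 3 groups of 4: WT control (Mtmr2 wt/wt, untreated per the labels), Mtmr2 KO (Mtmr2 -/-, also labelled untreated) and niacin-treated Mtmr2 KO. Mtmr2 encodes a phosphoinositide phosphatase, and mice that lack it, kept on a 129/SvPas background, are a model of the demyelinating neuropathy CMT4B1. Niacin was injected at 120 mg/kg from postnatal day 10 to day 21, and a slow-release form, Niacin-SR, was then given by gavage to day 30, while the study's text speaks of the untreated mutants as given vehicle, so whether they were handled alike is uncertain. Each group held 3 males and 1 female, and the sex of each mouse was not given. No niacin-treated WT group was analysed here, so a niacin effect cannot be told apart from one that needs the mutation. The questions were how these regulators differ between mutant and WT nerve, and between mutant nerve with and without niacin.

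PPARG is the receptor without which fat cells do not form. It binds DNA as a pair with an RXR receptor, and in fat cells it acts with C/EBP alpha, each keeping the gene of the other active, to turn on the genes of lipid uptake, storage and the adipokines. C/EBP beta and delta act early and transiently in that programme and, elsewhere, in acute inflammatory responses, while EBF2 marks fat cell precursors. In nerve, fat cells lie in the epineurium, and Schwann cells make large amounts of lipid for myelin, so reads of these genes can come from more than one cell type. In bulk tissue, fewer cells of a type and less RNA per cell cannot be told apart.

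Pparg and Cebpa, which differed most among the 10 genes between Mtmr2 KO and WT control, are shown by the 250 bases before their annotated starts, because C/EBP and nuclear receptor motifs are the classical links between them. Pparg has 3 starts here: transcripts from the upstream region encode PPARG1, and those from the downstream start encode the fat cell form PPARG2. Counts per gene cannot tell these forms apart. The sequences are from RefSeq on GRCm38.p6, 5′ to 3′, with motif matches in capitals.
Pparg, most upstream start (chr6:115360894-115361143, + strand): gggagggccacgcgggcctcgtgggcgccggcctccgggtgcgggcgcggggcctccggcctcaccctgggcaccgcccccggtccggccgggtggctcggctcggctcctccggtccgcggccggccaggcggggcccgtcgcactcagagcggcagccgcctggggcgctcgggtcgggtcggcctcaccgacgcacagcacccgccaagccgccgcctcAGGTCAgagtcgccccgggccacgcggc
Pparg, next start (chr6:115362099-115362348, + strand): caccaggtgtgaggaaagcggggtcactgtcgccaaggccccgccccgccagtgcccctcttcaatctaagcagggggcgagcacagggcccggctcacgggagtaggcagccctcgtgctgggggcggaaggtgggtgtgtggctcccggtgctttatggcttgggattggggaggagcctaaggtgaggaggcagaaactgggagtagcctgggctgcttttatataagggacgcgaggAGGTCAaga
Pparg, downstream start (chr6:115421816-115422065, + strand): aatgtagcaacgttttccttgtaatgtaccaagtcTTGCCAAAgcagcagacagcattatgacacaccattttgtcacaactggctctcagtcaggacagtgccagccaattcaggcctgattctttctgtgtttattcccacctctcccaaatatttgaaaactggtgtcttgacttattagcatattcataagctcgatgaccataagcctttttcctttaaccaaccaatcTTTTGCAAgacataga
Cebpa (chr7:35119043-35119292, + strand): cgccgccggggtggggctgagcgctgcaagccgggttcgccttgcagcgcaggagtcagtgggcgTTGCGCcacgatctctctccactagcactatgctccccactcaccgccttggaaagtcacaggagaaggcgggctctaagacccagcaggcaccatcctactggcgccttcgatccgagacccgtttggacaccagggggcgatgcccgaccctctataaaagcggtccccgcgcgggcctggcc
The motifs searched on both strands were the C/EBP core TTGCNNAA, the shorter C/EBP motif TTGCGC, the nuclear receptor motif AGGTCA and its direct repeat DR1, which is AGGTCA, any base, then AGGTCA again, so that each DR1 also counts as AGGTCA. The downstream Pparg window held 2 C/EBP cores, TTGCCAAA with its first base at -215 from the start and, on the minus strand, TTTTGCAA at -16. Both upstream Pparg windows held 1 AGGTCA, at -28 and at -9. The Cebpa window held 1 TTGCGC, at -185. Of 32851 windows of the same length in the table, 9.56% held the C/EBP core, 5.34% TTGCGC, 14% AGGTCA and 0.0335% DR1. Among the windows of the other genes found in the table (Rxra, Rxrg, Nr1h3, Cebpb, Ppara and Ppard), Rxrg held 1 C/EBP core at -212 and 1 AGGTCA at -88, and Rxra held AGGTCA at -87 (minus strand) and -48. Cebpd and Ebf2 are named only. A match is a description of letters, not of binding. The GENCODE model of Pparg (chr6:115360951-115490399, + strand) begins within the most upstream window, and that of Cebpa (chr7:35119293-35121928, + strand) begins at the base after its window.

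The libraries held between 20763951 and 33191106 counted reads, and the 4 of the niacin group, with at most 22935378, all lay below the median of 25544992. Mtmr2 itself was measured at 161, 130, 128 and 137 CPM (reads scaled to library size with the TMM factors of edgeR) in WT control, 71.6, 84.7, 143 and 69.5 in Mtmr2 KO and 66.8, 68.5, 68.3 and 73.5 with niacin. The library labelled Mtmr2 KO 4503 thus lay within the WT range, while the other 7 mutant libraries lay below it, so its label is uncertain and the main results are also given without it. The doubt rests on Mtmr2 alone. For Pparg, Cebpa and Cebpd this library lay with the other untreated mutants outside the WT range. That follows from naming these 3 genes for their lack of overlap, so it does not bear on the label. Between Mtmr2 KO and WT control Mtmr2 differed by log2 -0.59 (SE 0.20, edgeR adjusted p = 0.166), and by -0.89 (adjusted p = 0.0326) without that library. Which exons are missing in the mutant was not considered, so reads from the rest of the gene are counted too. The 8 markers of myelinating Schwann cells were abundant in every library, with sums from 62031 to 118032 CPM, and none was at 0 throughout a group. Markers of white fat cells were also present in every library, with the 12 genes of that list summing to between 1167 and 7884 CPM, and which cells those reads came from was not tested. Niacin 4506 and 4507 carried skeletal muscle genes at 3428 and 3378 summed CPM, against 34.6 to 112 in the other 10 libraries, and the part of muscle in the niacin results was not tested.

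No gene of the 10 passed an adjusted p of 0.05 in any comparison by edgeR's quasi-likelihood test on all 12 libraries. Between Mtmr2 KO and WT control, 0.267% of all genes passed (0.0464% higher, 0.22% lower), and 3 of the 10 (Pparg, Cebpa and Cebpd) had an unadjusted p under 0.05, against 17.2% of all genes. The same 3 genes were those whose 4 mutant libraries did not overlap the 4 WT libraries, against 9.32% of all genes. Cebpd was higher, as were 3.85% of all genes without overlap, and Pparg and Cebpa were lower, as were 5.46%. DESeq2 on all 12 libraries called all 3 of them, with 3.77% of all genes called. DESeq2 on those 2 groups alone called 2 (2.42% of all genes), limma-voom with sample quality weights called 2 (0.626%), and edgeR on those 2 groups alone called 0, where it also called 0% of all genes. Their calls therefore depended on the tool, and the values below are given as measured.

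**Figure D1:**
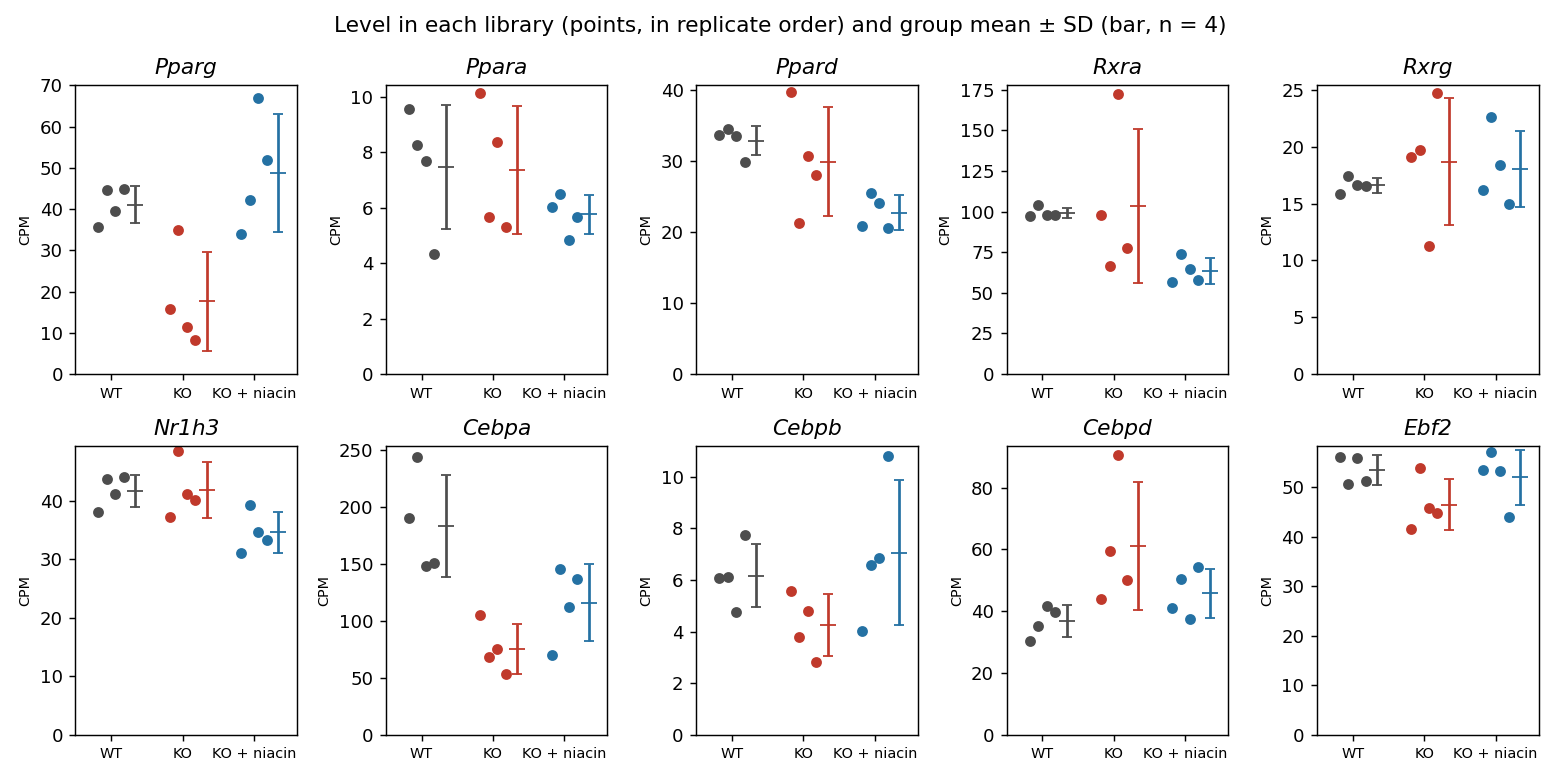
Level of each of the 10 genes in CPM (y axis, from 0) in the 12 libraries, with 4 points per group in replicate order (WT, KO, KO + niacin) and beside them the group mean ± SD. Pparg and Cebpa sit lower in the 4 KO libraries than in any WT library, Cebpd sits higher, and Pparg with niacin spans 33.9 to 67.0 CPM, around the WT values.

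Between niacin-treated and untreated Mtmr2 KO, 0 of the 10 passed edgeR's test (1.43% of all genes did, 0.695% higher and 0.73% lower) and 6 had an unadjusted p under 0.05 (20.1% of all genes): Pparg, Cebpa and Cebpb with higher means, and Ppard, Rxra and Nr1h3 with lower means. In none of the 10 were these groups apart, which held for 7.01% of all genes (3.6% higher, 3.4% lower). DESeq2 called Pparg alone, both on all 12 libraries (6.42% of all genes called) and on those 2 groups (2.5%), limma-voom with quality weights called Pparg, Ppard and Rxra (11.6%), and edgeR on those 2 groups called 0 (0%). Between niacin-treated Mtmr2 KO and WT control, edgeR called 0 of the 10 and 0% of all genes, and 4 of the 10 had an unadjusted p under 0.05 (24.7% of all genes). Ppard, Rxra and Cebpa were lower in all 4 niacin libraries than in any WT library, which is a common event here, since 31.4% of all genes did not overlap (14.9% higher, 16.6% lower). DESeq2 on all 12 libraries called 0 of the 10 (7.56% of all genes), while 4 (Ppard, Rxra, Nr1h3 and Cebpa) were called by DESeq2 on those 2 groups (37.8%), by limma-voom (42.4%) and by edgeR on those 2 groups (33.9%). The 3 comparisons share samples in pairs, so they are not separate evidence. The median log2 fold change of the 10 genes was -0.07 between Mtmr2 KO and WT control, against 0.03 over all genes, -0.16 between niacin and untreated mutants, against -0.04, and -0.16 between niacin and WT, against 0.02.

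**Figure D2:**
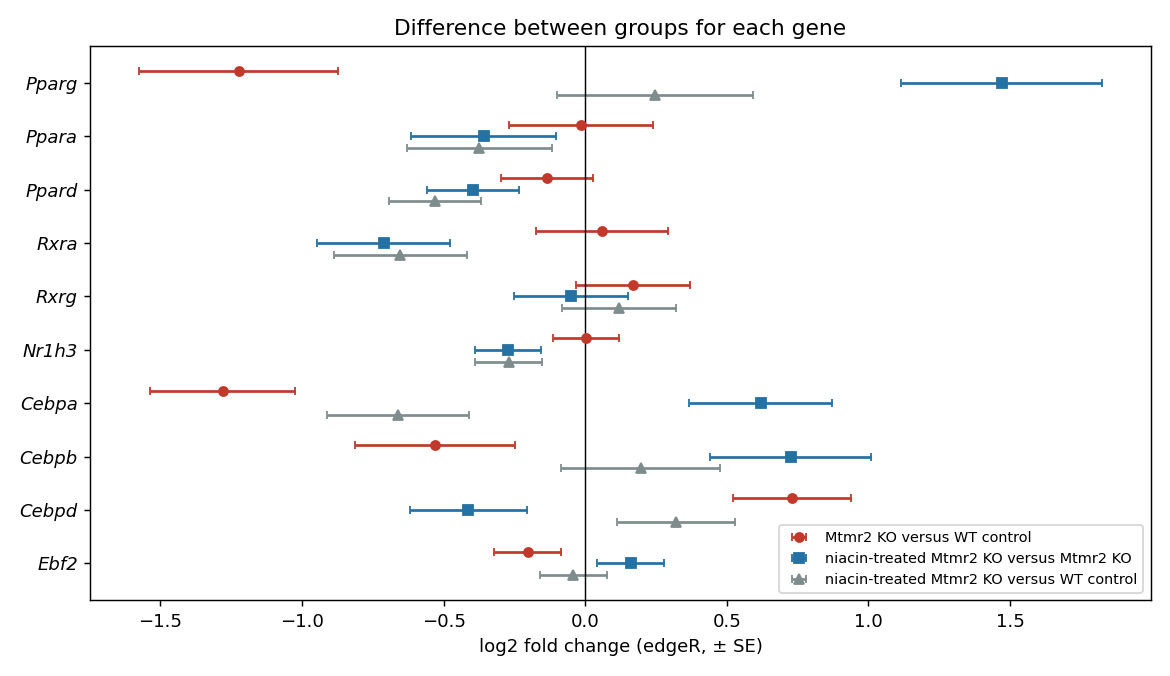
Log2 fold change ± SE by edgeR (x axis) for each of the 10 genes (y axis) in the 3 comparisons, with the first-named group over the second. Pparg and Cebpa lie lowest for Mtmr2 KO over WT control at -1.22 and -1.28, and Pparg lies highest for niacin over untreated Mtmr2 KO at 1.47.

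Pparg, the receptor that drives fat cell formation (ENSMUSG00000000440), was measured at 35.6, 44.5, 39.5 and 44.8 CPM in WT control. In Mtmr2 KO it was at 15.8, 35.0, 11.5 and 8.18 CPM in replicates 4501 to 4504. With niacin it was at 33.9, 42.2, 67.0 and 51.9 CPM. All 4 mutant libraries lay below all 4 WT libraries, but 4502 missed the lowest WT value by little, and the other 3 were far lower. The niacin libraries overlapped the WT range, and niacin 4505 lay just below Mtmr2 KO 4502. The means were 41.1 ± 4.43, 17.6 ± 11.99 and 48.8 ± 14.2 CPM (SD, n = 4), and the libraries spanned 1.26-fold in WT, 4.28-fold in Mtmr2 KO and 1.97-fold with niacin. Mtmr2 KO was 2.34-fold below WT control (log2 -1.22, SE 0.35, edgeR adjusted p = 0.120), and an exact permutation test gave 0.0286, the smallest p that 4 against 4 allows. Niacin-treated mutants were 2.77-fold above untreated ones (log2 1.47, SE 0.35, adjusted p = 0.056, exact permutation p = 0.0571) and 1.19-fold above WT (log2 0.25, adjusted p = 0.671). Leaving out Mtmr2 KO 4502 brought both mutant comparisons past the threshold by edgeR, at log2 -1.80 (adjusted p = 0.00994) against WT and 2.02 (adjusted p = 0.00287) for niacin. In those fits 0.446% and 23.6% of all genes passed, against 0.267% and 1.43% with all libraries. Leaving out the library labelled Mtmr2 KO 4503 gave -1.07 (adjusted p = 0.171) and 1.31 (adjusted p = 0.139).

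Ppara, the receptor that governs fatty acid oxidation in liver, was the lowest of the 10 per length. Its libraries read 9.56, 8.27, 7.70 and 4.34 CPM in WT control, 10.1, 5.65, 8.36 and 5.29 in Mtmr2 KO and 6.02, 6.50, 4.84 and 5.66 with niacin. The 3 ranges overlapped, and the niacin group held the narrowest one. The log2 differences were -0.02, -0.36 and -0.37 in the 3 comparisons, in the order Mtmr2 KO over WT, niacin over untreated and niacin over WT, and the lowest adjusted p was 0.359.

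Ppard, the broadly expressed receptor of the family, was measured at 33.6, 34.5, 33.4 and 29.9 CPM in WT control, 39.7, 21.3, 30.6 and 28.0 in Mtmr2 KO and 20.9, 25.5, 24.1 and 20.5 with niacin. The mutant libraries straddled the WT range, while all 4 niacin libraries lay below every WT library. Niacin-treated mutants were 1.44-fold below WT (log2 -0.53, SE 0.16, edgeR adjusted p = 0.108, exact permutation p = 0.0286) and 1.32-fold below untreated mutants (log2 -0.40, adjusted p = 0.197). Without Mtmr2 KO 4502 both passed, with adjusted p = 0.0102 and adjusted p = 0.0123, in fits where 21.6% and 23.6% of all genes passed. Pparg and Ppard thus differed from untreated mutants in opposite directions with niacin, a contrast between genes that was not tested.

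Rxra, the main DNA-binding partner of the PPAR receptors, was tightly set in WT control at 97.3, 104, 97.9 and 98.0 CPM. The mutants read 97.9, 66.6, 172 and 77.3 CPM, with the library labelled 4503 far above the rest, and the niacin libraries read 56.4, 74.0, 64.4 and 57.9 CPM. Every niacin library lay below every WT library, and 3 of them lay below every untreated mutant. Niacin-treated mutants were 1.57-fold below WT (log2 -0.65, SE 0.23, edgeR adjusted p = 0.135) and 1.64-fold below untreated mutants (log2 -0.71, SE 0.23, adjusted p = 0.123). Without Mtmr2 KO 4502 these reached adjusted p = 0.0289 and adjusted p = 0.0123, where 21.6% and 23.6% of all genes passed, and without 4503 the first reached adjusted p = 0.0497 (1.74% of all genes passed) while the second shrank to log2 -0.35 (adjusted p = 0.303). Between Mtmr2 KO and WT the log2 difference was 0.06, and -0.30 without 4503. The 6 endothelium markers, led by Pecam1 and Cdh5 and none at 0 throughout a group, summed to 458 to 511 CPM in WT, 422, 216, 564 and 300 in Mtmr2 KO and 239 to 360 with niacin, so they were low or high in the same mutant libraries as Rxra and their niacin range lay below WT. The 6 perineurium markers summed to 823 to 1123 CPM in WT, 850 to 1205 in Mtmr2 KO and 664 to 867 with niacin, and the myelinating Schwann cell markers to 89510 to 113473, 85233 to 118032 and 62031 to 102046, with overlap. None of these markers passed edgeR's test, with 3, 1 and 2 of them lower at an unadjusted p under 0.05 between niacin and WT. The part of these cell types in the Rxra result was not tested.

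Rxrg, the RXR form found in few tissues, read 15.8, 17.5, 16.6 and 16.5 CPM in WT control, 19.1, 19.7, 11.2 and 24.8 in Mtmr2 KO and 16.2, 22.6, 18.4 and 15.0 with niacin. The groups overlapped in every comparison, and the library labelled 4503, the highest for Rxra, was the lowest for Rxrg. Its log2 differences were 0.17, -0.05 and 0.12, with edgeR adjusted p of 0.693, 0.914 and 0.731. Without 4503 the first was 0.35 (adjusted p = 0.249) and the second -0.23 (adjusted p = 0.553).

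Nr1h3, the oxysterol receptor LXR alpha, read 38.1, 43.7, 41.1 and 44.1 CPM in WT control, 37.3, 48.6, 41.2 and 40.2 in Mtmr2 KO and 31.1, 39.3, 34.7 and 33.3 with niacin. Mutant and WT means were nearly the same, at 41.8 ± 4.80 and 41.7 ± 2.77 CPM (SD, n = 4). In the niacin group 3 of the 4 libraries lay below all others, and 4506 lay among them. Niacin-treated mutants were 1.21-fold below untreated ones (log2 -0.27, edgeR adjusted p = 0.217) and 1.21-fold below WT (log2 -0.27, adjusted p = 0.185). The latter passed without Mtmr2 KO 4502 (adjusted p = 0.0476), as did 21.6% of all genes.

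Cebpa, the C/EBP that keeps Pparg active in mature fat cells (ENSMUSG00000034957), was the highest of the 10 per length in every group. It read 191, 244, 148 and 151 CPM in WT control. It read 105, 68.2, 75.0 and 53.4 CPM in Mtmr2 KO and 69.9, 146, 112 and 137 with niacin. All 8 mutant libraries, treated or not, lay below every WT library. Within the mutants, 3 of 4 niacin libraries lay above all untreated ones, and niacin 4505 lay among the untreated. Mtmr2 KO was 2.43-fold below WT (log2 -1.28, SE 0.25, edgeR adjusted p = 0.053, exact permutation p = 0.0286), which missed the threshold by little. Niacin-treated mutants were 1.54-fold above untreated ones (log2 0.62, SE 0.25, adjusted p = 0.192) and 1.58-fold below WT (log2 -0.66, SE 0.25, adjusted p = 0.151). The Mtmr2 KO difference was past the threshold without Mtmr2 KO 4501 (log2 -1.49, adjusted p = 0.0243, with 2.6% of all genes past it) or without niacin 4505 (log2 -1.29, adjusted p = 0.0380, with 0.291%), and was -1.28 without the library labelled 4503 (adjusted p = 0.0921). Unlike Pparg, Cebpa was low in Mtmr2 KO 4502 as well, so its mutant libraries spanned 1.97-fold.

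Cebpb, an early inducer of Pparg, was covered by 59 to 252 reads per library, the fewest of the 10. It read 6.07, 6.11, 4.76 and 7.76 CPM in WT control, 5.57, 3.81, 4.81 and 2.84 in Mtmr2 KO and 4.02, 6.59, 6.85 and 10.8 with niacin. The groups overlapped throughout. The log2 differences were -0.53 (SE 0.28) between Mtmr2 KO and WT, 0.73 (SE 0.28) between niacin and untreated mutants and 0.20 (SE 0.28) between niacin and WT, and the lowest edgeR adjusted p was 0.180. Cebpb lies opposite Tmem189, a gene on the other strand with 67864 reads over the 12 libraries. Whether strand was used in counting is not stated in the methods or labels, and without strand the reads of this pair cannot be told apart.

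Cebpd, which acts beside Cebpb and is induced by glucocorticoids, had a higher mean in Mtmr2 KO than in WT. It read 30.2, 35.1, 41.9 and 39.8 CPM in WT control, 43.8, 59.4, 90.6 and 50.3 in Mtmr2 KO and 41.2, 50.5, 37.4 and 54.3 with niacin. Each mutant library lay above each WT library, the library labelled 4503 most of all, and the niacin libraries overlapped both groups. Mtmr2 KO was 1.66-fold above WT (log2 0.73, SE 0.21, edgeR adjusted p = 0.118, exact permutation p = 0.0286), and niacin-treated mutants were 1.33-fold below untreated ones (log2 -0.41, SE 0.21, adjusted p = 0.285). Leaving out 4503 reduced the first to log2 0.47 (adjusted p = 0.170) and the second to -0.16 (adjusted p = 0.727), while leaving out Mtmr2 KO 4501 brought the first past the threshold (log2 0.86, adjusted p = 0.0476), where 2.6% of all genes passed. The 8 glucocorticoid response genes, of which Mt1 and Tsc22d3 were the most abundant, summed to 1264 to 1566 CPM in WT control, 1977 to 7278 in Mtmr2 KO, with 4503 highest, and 1058 to 1743 with niacin, with none of the 8 at 0 throughout a group. None of the 8 passed edgeR's test between Mtmr2 KO and WT (5 were higher at an unadjusted p under 0.05), and 2 (Mt1 and Mt2) were lower with niacin than without. Their part in the Cebpd result was not tested. Cebpd lies opposite Spidr (8333 reads over the 12 libraries), with the same limit on strand.

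Ebf2, a factor of fat cell precursors, read 56.2, 50.7, 56.0 and 51.3 CPM in WT control, 41.6, 53.9, 45.8 and 44.9 in Mtmr2 KO and 53.6, 57.1, 53.3 and 44.0 with niacin. Mutants other than 4502 lay below WT, and the niacin libraries overlapped both groups. The log2 differences were -0.20, 0.16 and -0.04, each with SE 0.12 and with edgeR adjusted p of 0.390, 0.466 and 0.843. The 10 markers of precursors and endoneurial fibroblasts, led by Dcn and Fbn1 and none at 0 throughout a group, summed to 4120 to 4718 CPM in WT, 3690 to 7854 in Mtmr2 KO and 5228 to 6526 with niacin, and 0 of them passed edgeR's test in any comparison, with 2, 5 and 2 at an unadjusted p under 0.05 in the same order of comparisons.

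Levels of different genes can be compared only per length, so CPM was divided by the kilobases of merged exons. In WT control the order by mean was Cebpa at 69.6 ± 17.0 CPM per kb (SD, n = 4), Rxra at 18.2 ± 0.565, Nr1h3 at 16.6 ± 1.10, Pparg at 13.9 ± 1.499, Cebpd at 9.81 ± 1.39, Ebf2 at 7.73 ± 0.426, Rxrg at 7.23 ± 0.295, Ppard at 4.37 ± 0.272, Cebpb at 4.10 ± 0.817 and Ppara at 1.95 ± 0.580. Neighbours whose 4 libraries overlapped, and which therefore have no clear order, were Nr1h3 with Pparg, Cebpd with Ebf2, Ebf2 with Rxrg, and Ppard with Cebpb. In Mtmr2 KO, Pparg was in position 7 at 5.96 ± 4.06 CPM per kb, between Ebf2 and Ppard and overlapping both. Cebpd was in position 4 there at 16.3 ± 5.53, close to Nr1h3, and Cebpa at 28.6 ± 8.28 overlapped Rxra. With niacin, Pparg was in position 2 at 16.5 ± 4.81, overlapping Nr1h3, and Rxra was in position 5 at 11.6 ± 1.46.

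The white fat cell markers varied widely between the mutant libraries. Their 12 genes, led by Car3 and Cfd and none of them at 0 throughout a group, summed to 5556, 5724, 4466 and 5700 CPM in WT control, 3323, 7884, 3362 and 1167 in Mtmr2 KO and 3805, 5847, 6850 and 7465 with niacin. Mtmr2 KO 4502 had the most marker RNA of all libraries and 4504 the least, and these were also the highest and lowest mutants for Pparg. Of the 12, 11 had a lower mean in Mtmr2 KO than in WT (median log2 fold change -0.52, against 0.03 over all genes). EdgeR called 3 of these lower, Plin1, Lep and Tusc5 (0.267% of all genes passed). With niacin 11 had a higher mean than in untreated mutants (median 0.70, against -0.04), and edgeR called 1 higher, Lep (1.43%). Set against 1000 CPM of the summed markers, log2 Pparg was 2.68 to 3.14 in WT control and 2.80 to 3.29 with niacin. In Mtmr2 KO it was 2.25, 2.15, 1.77 and 2.81, with 3 of the 4 libraries below WT and 4504 within the WT range. Of the 12 markers 9 are also on the list of PPARG targets described below. A change in fat and a change in Pparg therefore cannot be told apart by this measure. For Cebpa the same measure was 4.73 to 5.41 in WT, 4.99, 3.11, 4.48 and 5.52 in Mtmr2 KO and 4.03 to 4.64 with niacin, so the mutants fell within, below and above the WT range and all 4 niacin libraries lay below it. In 4502 Plin1 (49.0 CPM) and Cebpa lay below every WT library, while Adipoq (443 CPM) and Cfd (2396 CPM) were higher there than in any WT library. The part of the amount of fat in the Pparg and Cebpa differences was not tested.

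**Figure D3:**
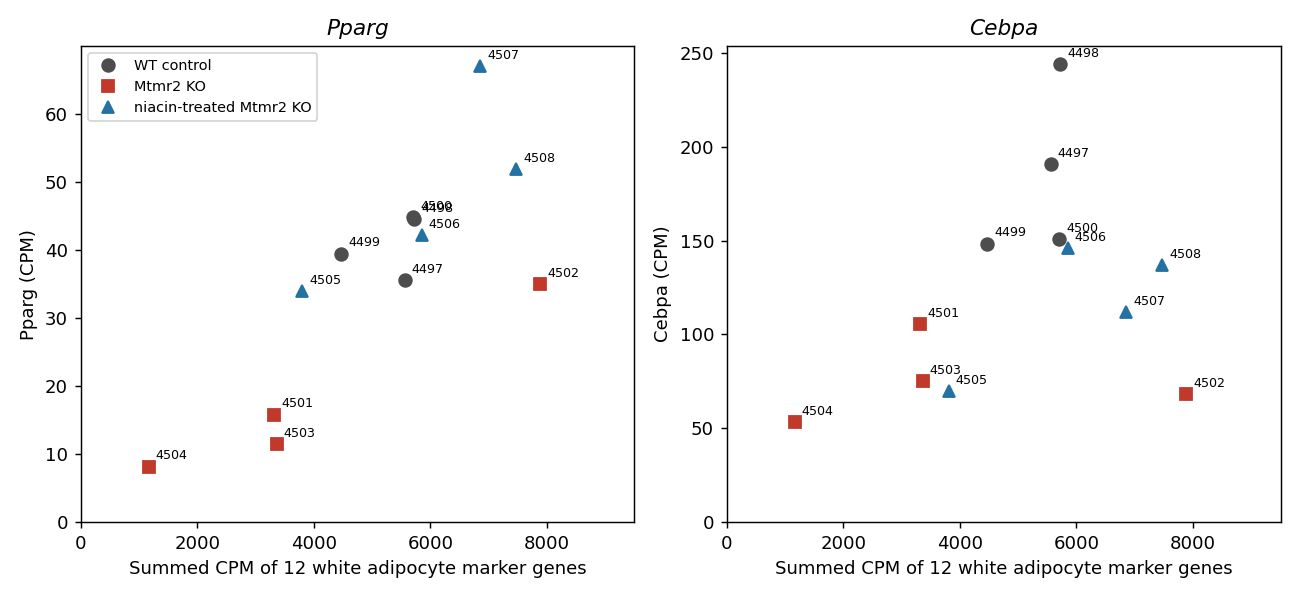
Pparg (left) and Cebpa (right) in CPM (y axes) against the summed CPM of 12 white fat cell marker genes (x axes), with 1 point per library, labelled by replicate and marked by group. Mtmr2 KO 4504 lies lowest on both axes for both genes, while Mtmr2 KO 4502 lies farthest right at 7884 CPM of markers with 35.0 CPM of Pparg and 68.2 CPM of Cebpa.

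The targets through which PPARG and C/EBP alpha build a fat cell were described by a list of 22 genes, 9 of which also mark white fat cells. Between Mtmr2 KO and WT, edgeR called 2 lower and 0 higher (0.267% of all genes passed): Plin1, the perilipin that coats fat droplets, and Lep, the adipokine leptin. DESeq2 called 11 of the 22 on all 12 libraries (3.77% of all genes) and 9 on those 2 groups (2.42%). Limma-voom called 9 (0.626%), and edgeR called 9 without a filter (1.01%) and 0 on those 2 groups (0%). Of the 22, 21 had a lower mean, with a median log2 fold change of -0.87 against 0.03 over all genes. Plin1 read 229, 242, 157 and 167 CPM in WT, 85.3, 49.0, 62.1 and 26.0 in Mtmr2 KO and 69.1, 148, 138 and 142 with niacin. All 4 mutant libraries were below WT (log2 -1.84, SE 0.32, edgeR adjusted p = 0.0448). Lep read 39.6, 77.7, 39.9 and 53.9 CPM in WT, 16.3, 12.7, 9.17 and 13.6 in Mtmr2 KO and 30.1, 66.2, 55.9 and 32.4 with niacin. It was lower in the mutants than in both other groups with no overlap, at log2 -2.03 against WT (SE 0.29, adjusted p = 0.0364) and log2 1.84 for niacin over untreated (SE 0.29, adjusted p = 0.0383).

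With niacin against untreated mutants, edgeR called 2 of the 22 targets higher and 0 lower (1.43% of all genes passed): Lep and Agpat2, an enzyme of triglyceride synthesis. DESeq2 called 7 on all 12 libraries (6.42% of all genes) and 6 on those 2 groups (2.5%). Limma-voom called 13 (11.6%), and edgeR called 7 without a filter (1.69%) and 0 on those 2 groups (0%). Agpat2 read 92.0, 110, 73.5 and 67.8 CPM in WT, 53.0, 49.9, 39.5 and 37.1 in Mtmr2 KO and 66.4, 101, 107 and 194 with niacin, and the untreated mutants lay below both other groups (log2 1.38 for niacin over untreated, SE 0.27, edgeR adjusted p = 0.0401). Of the 22, 20 had a higher mean with niacin, with a median log2 fold change of 0.70 against -0.04 over all genes. Against WT the niacin group had a median of -0.28 over the 22 and none passed edgeR's test, with 1 higher and 4 lower at an unadjusted p under 0.05 and 1 called by DESeq2 on all 12 libraries. On those 2 groups alone edgeR called 9 and DESeq2 9, and limma-voom called 8, in fits where 33.9%, 37.8% and 42.4% of all genes passed. That median ran from -0.43 without niacin 4506 to -0.028 without WT control 4498 and was -0.13 without niacin 4505. In single libraries the median of the 22 against the WT mean was -0.68, -0.86, -1.16 and -2.001 in Mtmr2 KO 4501 to 4504 and -0.78, 0.03, -0.16 and -0.13 in niacin 4505 to 4508. Niacin 4505 was thus as low as the untreated mutants and the other 3 were near WT. The calls on this list varied with the library left out, as did the calls over all genes. Leaving out any 1 WT library, niacin 4507 or niacin 4508 left 0 called between Mtmr2 KO and WT, where 0% of all genes passed. Leaving out the library labelled Mtmr2 KO 4503 also left 0 (0.0344% of all genes), and leaving out Mtmr2 KO 4501 gave 6 (2.6%). For niacin against untreated mutants the count was 0 without any 1 WT library, niacin 4506 or niacin 4507. There 0% of all genes passed, or 0.0114% without WT control 4498. The count was 0 without Mtmr2 KO 4503 (0.0746% of all genes) and 11 without Mtmr2 KO 4502 (23.6%). The median between Mtmr2 KO and WT stayed between -0.98 and -0.68 in those 12 fits.

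**Figure D4:**
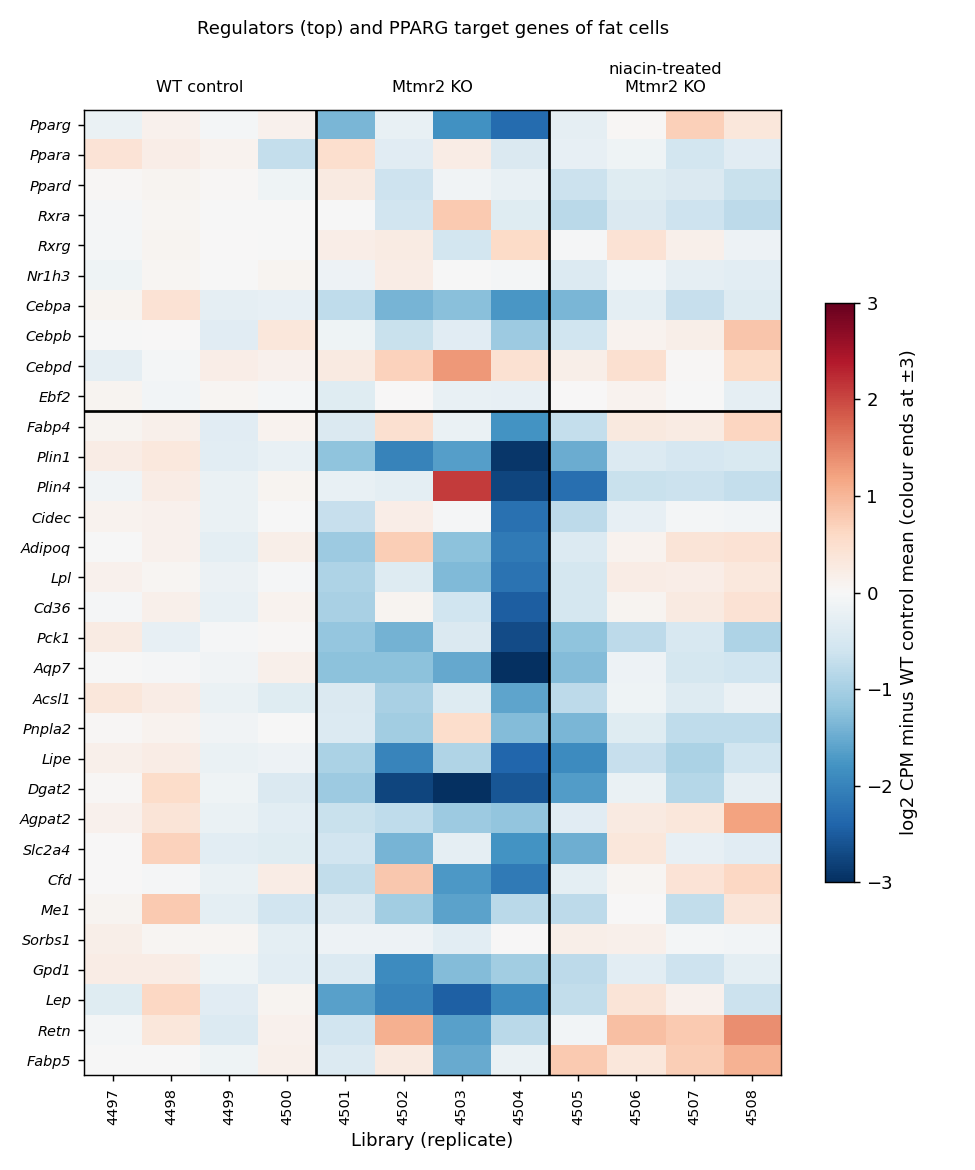
Colour map of log2 CPM minus the WT control mean (blue lower, red higher, colour ending at ±3, which 2 values passed) for the 10 regulators (top) and 22 PPARG targets (bottom) in the 12 libraries (columns, by group). Cebpa and most targets are blue in the 4 Mtmr2 KO libraries and in niacin 4505, with Adipoq, Cfd and Retn red in Mtmr2 KO 4502 and Plin4 red in the library labelled Mtmr2 KO 4503.

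Targets of the other receptors had 0 calls by edgeR, while DESeq2 called some of them. Of 22 genes of fatty acid oxidation under PPARA and PPARD, led by Hadha and Ech1, 19 were tested and 0 passed edgeR's test in any comparison. At an unadjusted p under 0.05, 3 were higher and 3 lower between Mtmr2 KO and WT, 4 and 4 between niacin and untreated mutants, and 1 and 2 between niacin and WT. Their medians were -0.05, 0.09 and 0.09 on the log2 scale. Of 14 LXR targets, led by Scd2, Scd1 and Apoe, 12 were tested and 0 passed, with 5 lower and 0 higher at an unadjusted p under 0.05 between Mtmr2 KO and WT, 1 each way between niacin and untreated mutants, and 3 lower between niacin and WT. Their medians were -0.24, 0.09 and -0.32. DESeq2 on all 12 libraries called 4, 5 and 1 of the oxidation genes and 3, 1 and 2 of the LXR targets. In these 3 comparisons it called 3.77%, 6.42% and 7.56% of all genes, also beside the DESeq2 counts on the lists below. By edgeR 17.2%, 20.1% and 24.7% of all genes had an unadjusted p under 0.05, also beside such counts on those lists.

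The acute phase genes that C/EBP beta and delta turn on numbered 12, of which 11 were tested, with C3 and Hp the most abundant. EdgeR called 1, Lcn2, the iron carrier lipocalin 2, as higher in Mtmr2 KO than in WT (0.267% of all genes passed). It called 3 as lower with niacin than in untreated mutants (1.43%): Lcn2, Saa3, a serum amyloid, and Socs3, a brake on cytokine signalling. At an unadjusted p under 0.05, 7 genes were higher and 0 lower between Mtmr2 KO and WT (17.2% of all genes). The counts were 2 and 6 between niacin and untreated mutants (20.1%), and 2 and 1 between niacin and WT (24.7%). Their medians were 0.40, -0.80 and -0.28 on the log2 scale, against 0.03, -0.04 and 0.02 over all genes. DESeq2 on all 12 libraries called 3, 6 and 1 genes of this list in the 3 comparisons. Lcn2 read 2.15, 4.42, 2.90 and 6.25 CPM in WT, 31.8, 44.2, 51.0 and 5.29 in Mtmr2 KO and 1.47, 2.08, 3.02 and 4.76 with niacin. The first 3 mutants stood far above all other libraries while 4504 lay within the WT range, with log2 3.07 (SE 0.57, edgeR adjusted p = 0.0457) and -3.54 (SE 0.59, adjusted p = 0.0383). Saa3 had 37, 866, 367 and 1 reads in Mtmr2 KO and 0 to 11 reads in every other library, so its call (adjusted p = 0.0458) rested on 4501 to 4503. Socs3 read 21.2, 16.4, 29.5 and 26.3 CPM in Mtmr2 KO and 11.2, 13.2, 13.3 and 16.0 with niacin (log2 -0.80, SE 0.18, adjusted p = 0.0486). The 6 neutrophil markers summed to 0.791 to 0.991 CPM in WT, 14.1, 15.2, 4.9995 and 1.44 in Mtmr2 KO and 0.539 to 8.84 with niacin, with the defining marker Ly6g at 0 in all WT libraries, and 0 of the 3 that were tested passed edgeR's test, with 3 higher between Mtmr2 KO and WT at an unadjusted p under 0.05. The part of neutrophils in these genes was not tested.

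The 14 coactivators and corepressors, among them Ncor1 and Ep300, had 0 called by edgeR in any comparison (1, 6 and 4 at an unadjusted p under 0.05, and 0, 1 and 2 by DESeq2 on all 12 libraries), with medians of -0.07, -0.14 and -0.21. The 8 relatives of the 10 genes, led by Nr1h2, Cebpg and Rxrb, had 7 tested and 0 called by edgeR (2 in each comparison at an unadjusted p under 0.05, and 1, 0 and 0 by DESeq2), with medians of 0.01, -0.15 and -0.23. Of 11 other receptors that pair with RXR, led by Thra and Nr4a1, 9 were tested. EdgeR called 1, Nr4a2, an orphan receptor of the early response, as lower with niacin than in untreated mutants (1.43% of all genes passed). At an unadjusted p under 0.05, 1 receptor was higher and 2 lower between Mtmr2 KO and WT (17.2% of all genes). The counts were 3 and 5 between niacin and untreated mutants (20.1%), and 0 and 4 between niacin and WT (24.7%). Their medians were -0.03, -0.47 and -0.05. Nr4a2 read 144, 80.9, 180 and 94.5 CPM in Mtmr2 KO and 55.6, 75.8, 57.0 and 66.7 with niacin (log2 -0.97, SE 0.22, edgeR adjusted p = 0.0460), with WT at 86.6 to 109. DESeq2 on all 12 libraries called 1, 2 and 3 of these receptors in the 3 comparisons.

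Of 18 factors that favour fat cell formation, led by Nr3c1, Igf1 and Klf9, 0 were called between Mtmr2 KO and WT, though 14 had lower means (median -0.43), with 1 higher and 10 lower at an unadjusted p under 0.05 by edgeR and 4 called by DESeq2 on all 12 libraries. With niacin against untreated mutants the median was 0.02, with 4 higher and 3 lower at an unadjusted p under 0.05 (20.1% of all genes). EdgeR called 1 (1.43% of all genes passed), Bmp4, a signal that commits precursors to the fat lineage. Bmp4 rose from 6.17, 5.34, 5.29 and 6.21 CPM to 8.77, 8.54, 10.3 and 8.62 (log2 0.65, SE 0.14, edgeR adjusted p = 0.0457). The niacin values of Bmp4 lay within the WT range of 7.35 to 9.37 in 3 of 4 libraries. Of 18 factors that restrain fat cell formation, led by Tsc22d3 and Cdkn1b, 0 were called by edgeR between Mtmr2 KO and WT (median -0.33), with 2 higher and 8 lower at an unadjusted p under 0.05 and 5 called by DESeq2. With niacin against untreated mutants the median of these 18 was -0.33, with 2 higher and 5 lower at an unadjusted p under 0.05. EdgeR called 1 of them, Cdkn1b, the cell cycle inhibitor p27. Cdkn1b fell with niacin from 687, 427, 789 and 469 CPM to 271, 329, 259 and 259 (log2 -1.09, SE 0.19, edgeR adjusted p = 0.0388), with WT at 333 to 386. None of the edgeR calls on these lists in the first 2 comparisons remained without any 1 WT library or the library labelled Mtmr2 KO 4503. Few genes of any kind passed in those fits. Without a WT library 0% of all genes passed between Mtmr2 KO and WT, and at most 0.0114% between niacin and untreated mutants. Without 4503 the shares were 0.0344% and 0.0746%. Without 4503 the log2 differences between Mtmr2 KO and WT were -1.90 for Plin1 and 2.78 for Lcn2 (adjusted p = 0.0834 for both) and -1.89 for Lep (adjusted p = 0.0633). For niacin over untreated mutants they were 1.70 for Lep, 1.33 for Agpat2, -3.25 for Lcn2, -6.27 for Saa3, -0.67 for Socs3, -0.74 for Nr4a2, 0.62 for Bmp4 and -0.92 for Cdkn1b, with edgeR adjusted p between 0.0686 and 0.120. The calls on the markers Tusc5 (-1.58), Mt1 (-2.45) and Mt2 (-1.98) were lost as well. Between niacin and WT, edgeR called 0 genes of any of these lists, as it called 0 of all genes.

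The genes whose log2 CPM most resembled that of Pparg over the 12 libraries were Abcd2 (Pearson r = 0.98), Pon3 (0.97), Heph (0.97), Lpl (0.95) and Kctd12b (0.95), out of 11440 genes with a mean of 5 CPM or more. By rank (Spearman) the values in that order were 0.92, 0.90, 0.87, 0.88 and 0.70, so Kctd12b followed the order of Pparg least closely. Abcd2, a peroxisomal fatty acid transporter, averaged 89.1 CPM in WT, 44.7 in Mtmr2 KO and 107 with niacin. For Cebpa the nearest genes by Pearson r were Klhdc7a (0.99), Aoc3 (0.97), Mfng (0.97), Plin1 (0.96) and Mmd (0.96). Klhdc7a averaged 33.8, 9.83 and 18.6 CPM in the same groups. After the group means were removed, r pooled over the 12 libraries was 0.96 for Abcd2 with Pparg and 0.98 for Klhdc7a with Cebpa. Both genes were picked for a high r in these same libraries, so the pooled values cannot show a likeness within each group. All these correlations are descriptions over 12 libraries that share the group differences and the amount of fat, and they carry no test. The names of the nearest genes differed between Pparg and Cebpa, with none on both lists of 5.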

How the data were processed

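Total RNA of 12 sciatic nerves was sequenced after poly(A) selection (2 × 150 bp). The submitters' processing notes and methods name CASAVA 1.9, STAR and the GRCm38/mm10 genome, and the authors deposited raw read counts per gene. Neither the counting program nor its annotation release or strand setting was stated in the methods or labels. The deposited comparison tables hold the authors' fold changes and p-values, and only their gene symbols were read (42615 of 43432 genes have one). Every row named a gene.

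Counts were filtered with filterByExpr, scaled by TMM and tested with edgeR 4.0.16 (quasi-likelihood, 3 groups in 1 fit, two-sided, Benjamini-Hochberg over all genes tested, threshold 0.05) in R 4.3.3. Alternatives were DESeq2 1.42.0, limma 3.58.1 (voom with sample quality weights), fits on 2 groups, DESeq2 size factors, other count filters, Xist as a covariate and leaving out each library. Each of the 10 genes also had an exact permutation test (two-sided, mean log2 CPM with prior count 2, all 70 splits of 8 libraries). The scripts were tested on simulated data.

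Gene models are GENCODE M21 (42462 of 43432 genes found). The 10 genes and all lists were chosen with earlier results of these data known. The text names the 10 genes, Mtmr2, the genes called on each list or otherwise its 3 most abundant, the 2 most abundant of each marker list, and the 5 genes most like Pparg and most like Cebpa. Some genes that this rule would name are not reported here. Other markers were named for contrast after their values were seen: Adipoq, Cfd, Retn and Plin4 in single libraries. Replicates are separate mice of a group. Depth was 20763951 to 33191106 counts per library.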

Additional observations from a re-analysis of the deposited data

Results flagged for a closer look

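Of 30 groups of 4 libraries tested for a value far from the other 3 (3 groups for each of the 10 genes), 1 was flagged, and chance flags about 1 in 20 such groups. Rxra in WT control 4498 was the highest of its group at 104 CPM, against 97.3 to 98.0 CPM in the other 3 libraries. The gap was 0.883 of the group's range, a range that is small beside the 172 CPM of the library labelled Mtmr2 KO 4503.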

How the results depend on the processing

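Under the alternatives other than leaving out a library, the log2 fold changes of the 10 genes kept their direction and their side of the threshold in 205 cases, came past it in 27 and turned in 8. Those that turned were all between Mtmr2 KO and WT control and near 0: Ppara at 0.0045 with at least 10 counts in every library, Rxra at -0.11 by limma-voom and -0.0057 without a filter, and Nr1h3 at -0.018 by DESeq2 on all 12 libraries, -0.028 by DESeq2 on the 2 groups, -0.053 by limma-voom, -0.071 without a filter and -0.024 with Xist as a covariate.

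Calls among the 10 genes, 0 in each comparison as reported, were 3 (DESeq2, all 12 libraries), 2 (DESeq2, 2 groups), 2 (limma-voom) and 2 (no filter: Pparg and Cebpa) between Mtmr2 KO and WT control. They were 1, 1, 3 and 1 (Pparg) between niacin and untreated mutants, and 4 each by DESeq2 on 2 groups, limma-voom and edgeR on 2 groups between niacin and WT. Calls among the 138 list genes outside the 10 (129 tested) were 3 between Mtmr2 KO and WT as reported (0.267% of all genes called). DESeq2 called 31 on all libraries (3.77%) and 22 on 2 groups (2.42%), and limma-voom called 9 (0.626%). By edgeR the count was 0 on 2 groups (0%), 20 without a filter (1.01%) and 1 with Xist (0.0695%). Between niacin and untreated mutants 8 list genes were called as reported (1.43%). In the same order the other fits called 28 (6.42%), 17 (2.5%), 37 (11.6%), 0 (0%), 19 (1.69%) and 3 (0.29%). Between niacin and WT the counts were 0 as reported, then 19, 65, 67, 60 and 5 without a filter. The latter fits called 7.56%, 37.8%, 42.4%, 33.9% and 0.918% of all genes. The cause was not tested.

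Leaving out 1 library gave 0 to 2, 0 to 3 and 0 to 3 calls among the 10 genes in the 3 comparisons. Among the other list genes it gave 0 to 21, 0 to 58 and 0 to 36. The highest counts of both came without Mtmr2 KO 4501 in the first comparison (2.6% of all genes called). In the other 2 they came without Mtmr2 KO 4502 (23.6% and 21.6% of all genes called). Leaving out any WT library left 0 in all 6 counts, where at most 0.0114% of all genes passed. The PPARG target list had 0 calls in those fits too. Log2 fold changes then turned in 19 of 360 cases, with the ranges -0.21 to 0.12 for Ppara, -0.30 to 0.22 for Rxra, -0.0033 to 0.35 for Rxrg and -0.080 to 0.048 for Nr1h3 between Mtmr2 KO and WT, -0.23 to 0.12 for Rxrg between niacin and untreated mutants, and -0.032 to 0.20 for Rxrg, -0.085 to 0.38 for Cebpb and -0.11 to 0.029 for Ebf2 between niacin and WT. Pparg and Cebpa were lower in every Mtmr2 KO library than in any WT library, so leaving out 1 library could hardly turn their direction. Their log2 fold changes between Mtmr2 KO and WT ran from -1.80 to -0.998 and from -1.49 to -1.12 in the 12 fits.

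No paired analysis was made because the labels give each library a number of its own and name no pairing between groups. With 4 libraries a group, exact permutation p-values cannot go below 0.0286, and the sex of each mouse, the amount of fat and the uncertain label of 4503 limit every comparison with Mtmr2 KO. Depth limited Cebpb and Ppara most, with 59 and 106 reads in their lowest libraries.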
